A study of Homo sapiens with 6 samples.

Results

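The respiratory chain and ATP synthase subunits are the nuclear-encoded proteins of complexes I to V of the inner mitochondrial membrane. They were examined in SU-DHL-2 cells, an established human cell line of diffuse large B-cell lymphoma (DLBCL). Members were chosen by gene symbol, with earlier results of these data known. Complex I was represented by NDUFA, NDUFB, NDUFC, NDUFS and NDUFV genes, complex II by SDHA to SDHD and complex III by UQCR genes. Complex IV was represented by COX4 to COX8 genes and complex V by ATP5 genes. The rule took 108 of the 34127 probes on the array, of which 105 probes measured 85 subunit genes and 3 measured noncoding transcripts named after their neighbours (NDUFA6-DT and NDUFB2-AS1). COX7B2 was detected on no array, which left 84 genes with 104 probes for testing, of 14746 genes and 23943 probes tested in all. All 104 probes were detected on all 6 arrays. NDUFA4 and NDUFA4L2 are now named COXFA4 and COXFA4L2 and therefore fell outside the rule.

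Both groups were the same unmodified cell line. In the IL-17A group, 3 samples were cultured with IL-17A, a cytokine secreted mainly by Th17 cells, at 200 pg/ml for 72 h, and the control group held 3 samples cultured for 72 h without it. The labels give the place of culture as in vivo, although the growth protocol describes culture in medium. RNA of each sample was labelled with a single dye and hybridised to its own whole-genome oligonucleotide array. The labels do not say whether the samples were independent cultures, so p-values measure the spread between these samples, which may be technical. They describe 1 cell line only, and in RNA pooled from many cells, fewer expressing cells and less RNA per cell cannot be told apart.

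The arrays were similar in quality. Between 23567 and 24077 probes were detected per array, no spot was saturated, and correlations across probes were 0.9942 to 0.9971 within a group and 0.9933 to 0.9948 between groups. All 10 B-cell markers checked, among them CD79A and PAX5, were detected on all arrays, with summed log2 levels of 15.55 to 15.62 in IL-17A samples and 15.52 to 15.54 in controls, and none passed the adjusted test. Of the T and NK cell markers 6 of 8 were detected. Their summed log2 levels were 10.03 to 10.16 in IL-17A samples and 10.25 to 10.47 in controls. CD4, the brightest, weighed most in this sum (means of 9.80 and 10.11). Only CD3E passed the adjusted test, falling at low mean signals of 2.78 and 3.235 (log2 fold change -0.455, limma adjusted p = 0.04). With slide as a block, as defined below, CD3E was at -0.36. CD3D, CD4 and CD8A were also below 0, while CD3G (0.12) and NKG7 (0.066) were above. The summed mesenchymal and endothelial markers, 5 of 7 detected, were at 8.01 to 8.08 in IL-17A samples and 8.165 to 8.38 in controls. CD14 was the only monocyte marker detected of 5 on the array, at log2 4.98 to 5.22 over all 6 arrays. Whether these levels had a part in the subunit results was not tested.

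The arrays were assigned to a pair of slides by shared scan records, so the slides are inferred. Slide 1 held the 3 controls and IL-17A replicate 1, and slide 2 held IL-17A replicates 2 and 3. The within-slide comparison is therefore IL-17A replicate 1 against the 3 controls, and it is given below as the value with slide as a block.

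Electrons from NADH enter the chain at complex I and those from succinate at complex II. They pass through ubiquinone to complex III, then through cytochrome c to complex IV, which reduces oxygen, and the proton gradient built on the way drives ATP synthesis by complex V. The core subunits of complex I carry its flavin and iron-sulphur centres or pump protons, while its supernumerary subunits surround and stabilise them. Further core subunits of complexes I, III, IV and V are encoded by mitochondrial DNA and were not members here. A subset of DLBCL is known for high expression of oxidative phosphorylation genes, and nuclear respiratory factor 1 (NRF1), the ETS-family factor GABP, YY1 and ERRα (ESRRA) are known regulators of such promoters.

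Some promoter motifs, which the choice by symbol did not use, were more frequent among the members than among all promoters, though most members lacked each. Of the 85 genes, 70 had a promoter in the RefSeq table (GRCh38.p14), defined as 250 bases before to 50 bases after the gene's start. The NRF1 core GCATGCGC, searched on both strands, was present in 13 of the 70 (18.6%) and in 3.27% of all 27305 promoters. The ETS motif CCGGAAG was found in 20 (28.6%, against 10.7% of all promoters), the YY1 motif AAGATGGCG in 8 (11.4%, against 1.85%) and the ERRα motif TCAAGGTCA in 1 (1.43%, against 0.359%), the SDHD promoter. For other promoter elements the shares were nearer to each other, with CCAAT in 35.7% of member promoters and 35.7% of all, and TATAAA in 10% and 12%. Median GC content was 61.2% in the members and 58.3% overall. Complex II had the NRF1 core in 2 of 3 promoters and complex V in 4 of 14, complex I in 5 of 32, complex IV in 2 of 14 and complex III in 0 of 7. These are matches of letters in a window, not measured binding sites. The set of all promoters was not matched to the members for signal or GC content.

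The promoters of the 3 genes that passed the adjusted test (NDUFA11, NDUFA6 and COX8C) are shown first, followed by the 3 with the NRF1 core in the printed stretch and the lowest p (NDUFS6, NDUFS7 and SDHD). Each line gives the 150 bases before the start, 5′ to 3′ on the gene's strand, with matches to any of the 6 motifs in capitals. The regions are chr19:5903791-5903940 (minus strand) for NDUFA11, chr22:42090773-42090922 (minus strand) for NDUFA6, chr14:93347032-93347181 (plus strand) for COX8C, chr5:1801257-1801406 (plus strand) for NDUFS6, chr19:1383757-1383906 (plus strand) for NDUFS7 and chr11:112086723-112086872 (plus strand) for SDHD, all in GRCh38.p14.
NDUFA11: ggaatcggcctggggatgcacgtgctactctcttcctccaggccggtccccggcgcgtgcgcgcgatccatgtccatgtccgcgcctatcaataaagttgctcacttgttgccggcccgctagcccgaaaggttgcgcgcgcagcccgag
NDUFA6: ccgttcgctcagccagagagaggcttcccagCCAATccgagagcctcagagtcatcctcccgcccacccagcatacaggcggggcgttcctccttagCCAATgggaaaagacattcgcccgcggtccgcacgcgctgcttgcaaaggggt
COX8C: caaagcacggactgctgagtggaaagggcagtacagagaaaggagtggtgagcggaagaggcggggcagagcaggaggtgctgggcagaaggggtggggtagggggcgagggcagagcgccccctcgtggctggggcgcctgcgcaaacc
NDUFS6: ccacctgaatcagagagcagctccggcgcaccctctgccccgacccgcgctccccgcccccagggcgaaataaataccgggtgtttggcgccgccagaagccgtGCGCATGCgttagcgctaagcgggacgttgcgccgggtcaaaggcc
NDUFS7: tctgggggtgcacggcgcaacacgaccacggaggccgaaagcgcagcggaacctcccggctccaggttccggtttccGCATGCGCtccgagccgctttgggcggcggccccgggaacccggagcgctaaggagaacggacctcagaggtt
SDHD: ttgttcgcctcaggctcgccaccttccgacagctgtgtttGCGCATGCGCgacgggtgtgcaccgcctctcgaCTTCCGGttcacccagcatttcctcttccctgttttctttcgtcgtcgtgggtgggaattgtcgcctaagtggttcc
The NDUFS6 match is the NRF1 core read on the other strand, and SDHD holds overlapping matches on both strands followed by an ETS match on the other strand. NDUFA6 shows a pair of CCAAT boxes here, while its NRF1 and YY1 matches lie elsewhere in the searched window. No match to any of the 6 motifs was found in the NDUFA11 and COX8C windows.

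Most subunit probes gave strong signals in these cells, which bears on how small a difference could be measured. The mean log2 signal was 10 or more for 76 of the 84 genes (90.5%), compared with 23.1% of all tested genes, and the median was 12.08 against 7.84. Because probes differ in how well they hybridise, this describes probe signals and does not rank the genes by mRNA or protein. Tissue isoforms of complex IV lay nearer to background. COX7A1 and COX6A2, the isoforms of heart and skeletal muscle, and COX8C, known from testis, had mean log2 signals of 2.96 to 4.28 in either group, and COX7B2 had log2 values of 0 to 0.225.

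Changes with IL-17A were small in all complexes. No member gene reached a fold change of 1.5 with an unadjusted limma p under 0.05, a rule met by 1.92% of all tested genes and by 0.0881% of those with a mean log2 signal of 10 or more. The log2 fold changes of IL-17A over control ran from -0.44 to 0.56 with a median absolute value of 0.082. The 95% confidence interval lay within a 1.5-fold change in either direction for 80 of the 84 genes (95.2%, against 84.2% of all tested genes and 98.4% of those with a mean log2 signal of 10 or more). The exceptions at 1.5-fold were COX7A1, COX4I2, COX8C and ATP5IF1. The median width of the interval on either side was 0.10 on the log2 scale.

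With adjustment over all 23943 probes, 1 member gene rose and 2 fell. The risen gene was COX8C, and the fallen genes were NDUFA11 and NDUFA6. Among all tested genes 4.36% were called higher and 3.48% lower (7.84% in either direction), so the share of subunits called was no larger than the background. At an unadjusted p under 0.05, 6 members were higher (7.14%, against 16.9% of all tested genes) and 24 lower (28.6%, against 14.8%). The 3 IL-17A values lay above all 3 controls for 12 members (14.3%, background 21.4%) and below them for 35 (41.7%, background 19.3%). The balance thus leaned to lower values, with 55 of 84 genes below 0 (65.5%, against 49.1% of all tested genes) and a median of -0.06, compared with 0.003 over all tested genes and 0.012 over genes with a mean log2 signal of 10 or more. Of the genes with a mean log2 signal of 10 or more, 19.8% were higher and 14.4% lower at an unadjusted p under 0.05, and 27.9% and 22.3% had IL-17A values above or below all controls. Scaling the arrays by their 75th percentile placed 64 of 84 genes below 0, and their median was again -0.06. Over all tested probes the median was 0.007 in the main fit, -0.01 with this scaling and 0.013 with slide as a block. With slide as a block, no member was called, 54 genes were below 0 and the median was -0.026.

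**Figure D1:**
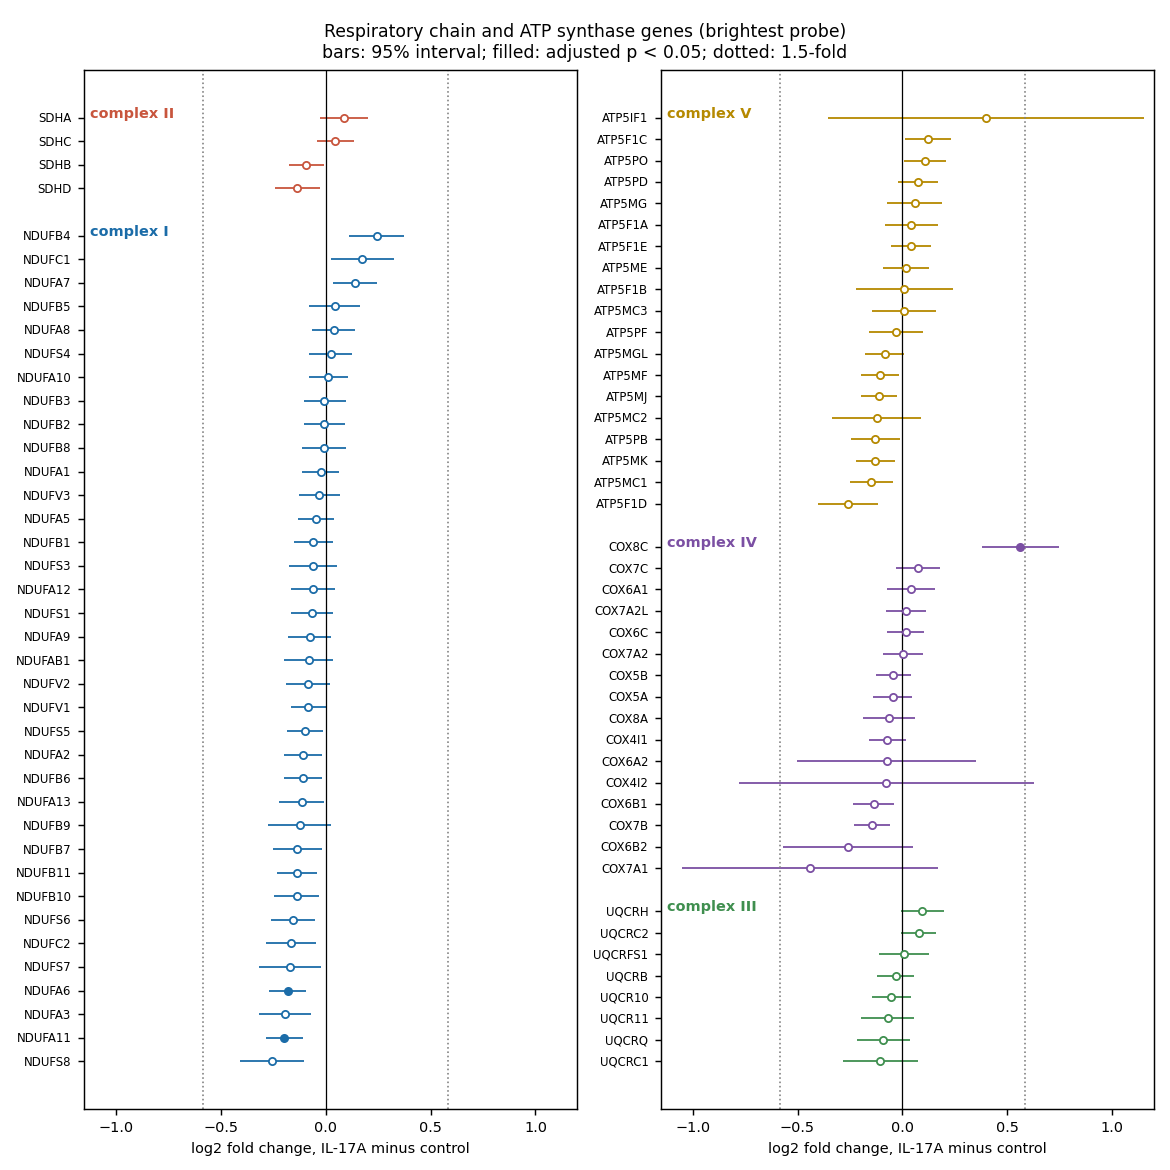
Log2 fold change of IL-17A over control (x axis, limma) for 83 of the 84 tested subunit genes (y axis), grouped by complex; bars are 95% confidence intervals, filled points passed the adjusted p threshold of 0.05 and dotted lines mark 1.5-fold. The filled points are COX8C, NDUFA11 and NDUFA6, and most intervals are narrow and close to 0, with wide ones for ATP5IF1, COX7A1, COX4I2 and COX6A2.

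The lean was visible on all 3 IL-17A arrays, though not to the same extent. Taking each gene's deviation from the mean of its 3 controls, the median over the 84 genes was -0.026 for IL-17A replicate 1, -0.061 for replicate 2 and -0.058 for replicate 3, whereas the control arrays were at 0.004, 0.003 and -0.008. The same medians over all tested genes were 0.009, 0.007 and 0.005 on the IL-17A arrays. Below all 3 controls were 42 of the 84 genes in replicate 1, 52 in replicate 2 and 50 in replicate 3, and above all controls were 21, 19 and 16 genes. In shares, 50%, 61.9% and 59.5% of the subunits were below all controls, against 33.6%, 35.5% and 33.7% of all tested genes, and 25%, 22.6% and 19% were above, against 36.7%, 37% and 34.9%. The array on slide 1 was thus the nearest to the controls.

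**Figure D2:**
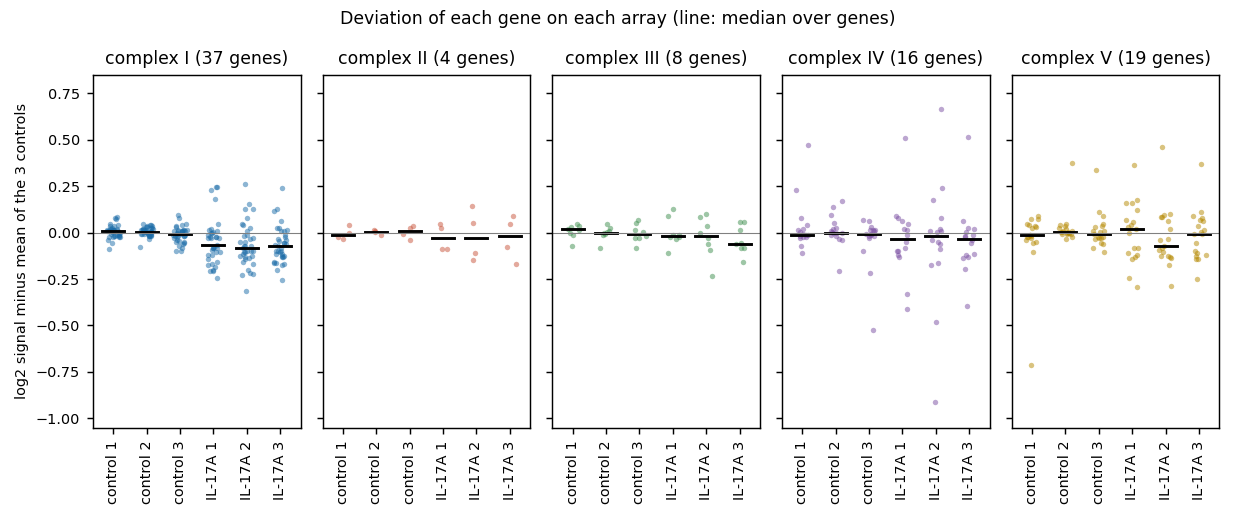
Log2 signal of each subunit gene minus the mean of its 3 control arrays (y axis) on each of the 6 arrays (x axis), with 1 panel per complex; points are genes and black lines medians over genes. The complex I medians of the IL-17A arrays lie at -0.066, -0.083 and -0.075, and those of its control arrays between -0.01 and 0.007, while complex V shows no common shift.

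Complex I, the NADH dehydrogenase, had the largest number of members and carried both falling calls. Of its 37 genes, 29 had a value below 0 and 8 above, with a median of -0.075. Unadjusted p was under 0.05 for 14 lower genes (37.8%, against 14.8% of all tested genes) and 3 higher ones (8.11%, against 16.9%). The groups did not overlap for 20 lower genes (54.1%, against 19.3%) and 3 higher ones (8.11%, against 21.4%). The 2 adjusted calls stand beside 3.48% of all tested genes called lower. Values below 0 were found for 6 of the 7 core subunits (median -0.083) and for 23 of the 30 supernumerary subunits (median -0.067). No test was made of a difference between complexes.

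NDUFA11, a supernumerary subunit of the membrane arm, had log2 signals of 11.35, 11.28 and 11.30 on the IL-17A arrays and 11.51, 11.50 and 11.51 on the control arrays. Every IL-17A value was below every control, and the gap was larger than the spread within either group. The log2 fold change was -0.20 (SE 0.036, 1.145-fold lower, adjusted p = 0.0415), and it was -0.16 with slide as a block (adjusted p = 0.159). NDUFA6, a supernumerary subunit that binds the mitochondrial acyl carrier protein, read 11.20, 11.25 and 11.24 with IL-17A and 11.42, 11.41 and 11.39 without. Again the groups were apart, with IL-17A replicate 1 the lowest of the 6 arrays. Its log2 fold change was -0.18 (SE 0.035, 1.132-fold lower, adjusted p = 0.0457), and -0.21 with slide as a block (adjusted p = 0.123). Both calls were lost when any 1 of the 6 arrays was left out, with log2 fold changes of -0.18 to -0.21 for NDUFA11 and -0.17 to -0.19 for NDUFA6. Over all alternatives the adjusted p ranged from 0.01 to 0.302 for NDUFA11 and from 0.0119 to 0.373 for NDUFA6.

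The outermost members of complex I did not pass the adjusted test. NDUFS8, a core iron-sulphur subunit, had IL-17A values of 11.21, 11.09 and 11.15 and control values of 11.49, 11.42 and 11.31 (log2 fold change -0.26, SE 0.061, adjusted p = 0.0613). At the other end, NDUFB4, a supernumerary membrane subunit, had IL-17A values of 13.855, 13.89 and 13.87 and control values of 13.54, 13.64 and 13.705 (log2 fold change 0.24, SE 0.052, adjusted p = 0.0514). Both genes had groups that did not overlap, in opposite directions. With slide as a block the values were -0.20 for NDUFS8 and 0.23 for NDUFB4.
The other higher genes with an unadjusted p under 0.05 were NDUFA7 (0.14) and NDUFC1 (0.18). Among the lower ones, NDUFA3 was at -0.19 (adjusted p = 0.0702), NDUFC2 at -0.165 (adjusted p = 0.0839), NDUFS7 at -0.17 (adjusted p = 0.126) and NDUFS6 at -0.155 (adjusted p = 0.0741). The last 2 are the holders of an NRF1 core shown above, while NDUFB4 also holds one and lay on the higher side. The noncoding transcripts named after complex I genes, which are not subunits, had log2 fold changes of -0.16 and -0.082 (probes for NDUFA6-DT) and -0.37 (NDUFB2-AS1, adjusted p = 0.0694).

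**Figure D3:**
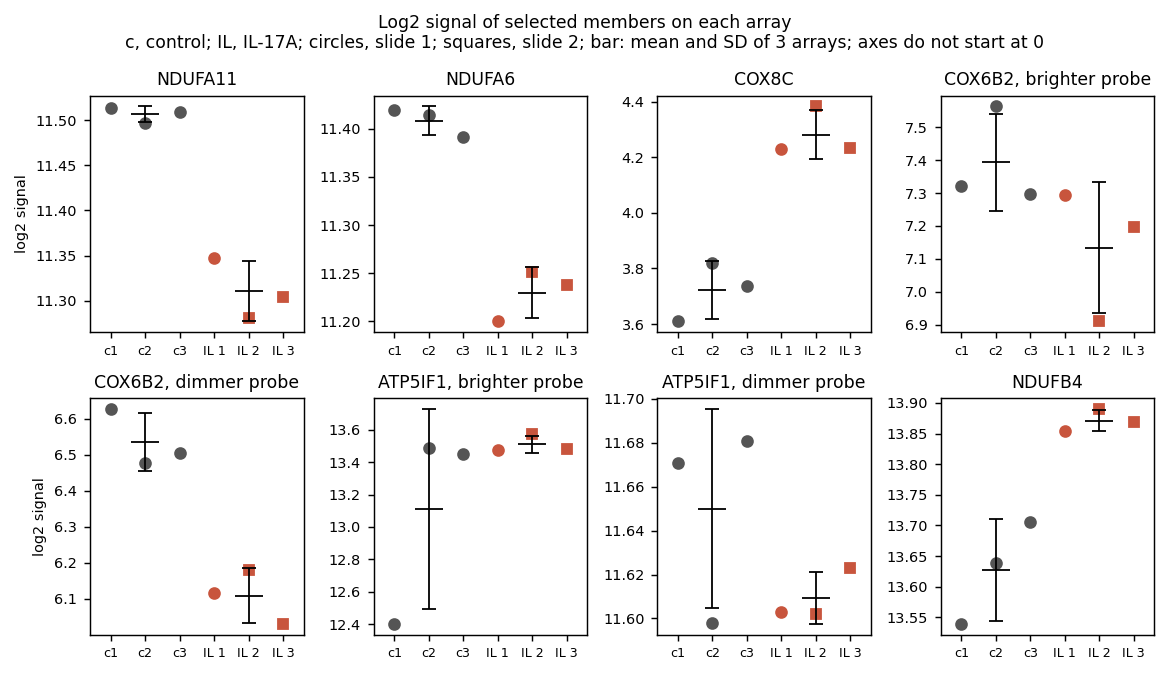
Log2 signal (y axis, each panel with its own range that does not start at 0) on each of the 6 arrays (x axis) for 8 probes of 6 subunit genes; grey points are controls, red points IL-17A, circles slide 1, squares slide 2, and bars the mean and SD of 3 arrays. NDUFA11, NDUFA6 and the dimmer COX6B2 probe were lower and COX8C and NDUFB4 higher on all IL-17A arrays, and the brighter ATP5IF1 probe was low on control replicate 1 alone.

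Complex II, the succinate dehydrogenase, also belongs to the citric acid cycle, and its 4 genes split evenly. SDHA, the flavoprotein, was at 12.22, 12.335 and 12.28 with IL-17A and 12.155, 12.205 and 12.21 without (log2 fold change 0.086), and SDHC, a membrane anchor, was at 0.047. SDHB, the iron-sulphur subunit, was at 10.88, 10.86 and 10.89 against 10.97, 10.98 and 10.96 (-0.092), and SDHD, the other anchor, was at 10.74, 10.68 and 10.66 against 10.87, 10.825 and 10.78 (-0.135). Although none passed the adjusted test, the IL-17A and control values did not overlap for any of the 4, as for 1710 of the 3405 tested genes with a mean log2 signal of 10 or more. The probes disagreed in part: the 3 SDHD probes gave -0.135 to 0.011, and a dimmer SDHA probe gave 0.24 (adjusted p = 0.0542).

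Complex III, which passes electrons from ubiquinol to cytochrome c, had no gene with an unadjusted p under 0.05 among its 8, and their median was -0.042. The highest value was that of UQCRH, the hinge protein (log2 fold change 0.095, and -0.008 with 75th percentile scaling), with 14.45, 14.43 and 14.38 with IL-17A and 14.37, 14.31 and 14.295 without. UQCRC2, a core protein, was the other gene with groups apart, at 12.82, 12.81 and 12.79 against 12.73, 12.73 and 12.735 (0.077). The lowest was its partner UQCRC1 at -0.11, with IL-17A values of 10.87, 10.66 and 10.83 that overlapped control values of 10.93, 10.94 and 10.81. For UQCR10 the 3 probes ranged from -0.16 to 0.022.

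Complex IV, the cytochrome c oxidase, contains several subunits with tissue-specific isoforms, and these accounted for its extremes. The 11 other genes had a median of -0.043 and stayed between -0.14 and 0.075, whereas the 5 tested isoforms ranged from -0.44 to 0.56. COX8C had log2 signals of 4.23, 4.38 and 4.23 on the IL-17A arrays and 3.61, 3.82 and 3.735 on the control arrays. All IL-17A values were above all controls, and IL-17A replicate 2 was the highest array. The log2 fold change was 0.56 (SE 0.074, 1.475-fold, adjusted p = 0.0319), and 0.51 with slide as a block (adjusted p = 0.116). The call was lost on leaving out any 1 array other than control replicate 3, with log2 fold changes of 0.506 to 0.61 over the 6 fits. It was also lost with normexp background correction, where the log2 fold change was 0.095. That correction adds an offset of 50 to each intensity, which shrinks fold changes of dim probes. It therefore cannot test a call at this low signal. Over all alternatives the adjusted p ranged from 0.018 to 0.132. COX8A, the widely expressed counterpart, was at -0.064.

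COX6B2, the testis isoform of subunit VIb, had a pair of probes. The dimmer one was at 6.115, 6.18 and 6.03 with IL-17A and 6.63, 6.48 and 6.505 without, and this probe fell (log2 fold change -0.43, adjusted p = 0.0328). With slide as a block it was at -0.42 and the call was lost (adjusted p = 0.121). The brighter one was at 7.295, 6.91 and 7.20 against 7.32, 7.56 and 7.30 (log2 fold change -0.26, SE 0.125, adjusted p = 0.219). Both were lower on every IL-17A array than on every control, the brighter one only narrowly, and only the dimmer probe passed, so that with probes counted in place of genes 1 rose and 3 fell, where 4.43% of all tested probes rose and 3.16% fell. COX6B1, the common isoform, was at -0.14 (adjusted p = 0.085), with non-overlapping groups.
The muscle and lung isoforms were too variable for a call. COX7A1 read 3.38, 2.485 and 3.00 with IL-17A and 3.625, 3.19 and 3.38 without, and its log2 fold change of -0.44 (SE 0.245) became -0.014 with slide as a block. COX6A2 was at -0.076 and the lung isoform COX4I2 at -0.077 (SE 0.284), with IL-17A values of 7.22, 7.80 and 7.63 among control values of 8.09, 7.68 and 7.10. The common forms were measured with less spread and lay close to 0, with COX4I1 at -0.072, COX6A1 at 0.041, COX7A2 at 0.002 and COX7A2L, known for its part in supercomplexes, at 0.017, the signs of COX6A1 and COX7A2 turning with 75th percentile scaling (-0.048 and -0.059). COX7B, a small membrane subunit, had the lowest p among the other genes of complex IV, with values of 11.02, 10.99 and 11.02 against 11.135, 11.16 and 11.16 (log2 fold change -0.14, SE 0.034, adjusted p = 0.0605).

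Complex V, the ATP synthase, was divided in sign. Of 19 genes, 10 were above and 9 below 0, and the median was 0.007. At an unadjusted p under 0.05, 6 were lower (31.6%, against 14.8% of all tested genes) and 2 higher (10.5%, against 16.9%). IL-17A values lay below all controls for 7 genes (36.8%, against 19.3%) and above them for 3 (15.8%, against 21.4%). The catalytic head and central stalk held both signs. ATP5F1D, the delta subunit, was at 10.45, 10.40 and 10.44 with IL-17A and 10.76, 10.72 and 10.58 without (log2 fold change -0.26, SE 0.057, adjusted p = 0.053), whereas ATP5F1C, the rotating gamma subunit, was at 0.12 (adjusted p = 0.132). The head subunits ATP5F1A and ATP5F1B were at 0.042 and 0.009.
In the peripheral stalk, ATP5PO, the oligomycin sensitivity-conferring protein, was at 0.11 and ATP5PB at -0.13. ATP5MC1, ATP5MC2 and ATP5MC3 encode the same mature c subunit of the rotor ring with different import sequences, and their values were -0.15 (adjusted p = 0.0815), -0.12 and 0.007. ATP5MC2 moved to -0.295 with slide as a block, as IL-17A replicate 1 was at 13.09 and replicates 2 and 3 at 13.30 and 13.40. Of the 6 small membrane subunits, 4 had IL-17A values below all controls, where 19.3% of all tested genes and 22.3% of those with a mean log2 signal of 10 or more did: ATP5MF (-0.11), ATP5MJ (-0.11), ATP5MK (-0.13) and ATP5MGL (-0.085), the last a near copy of ATP5MG, which was at 0.058.
ATP5IF1, the inhibitor that holds the synthase when the membrane potential falls, depended on the probe. The brighter probe read 13.48, 13.57 and 13.48 with IL-17A and 12.40, 13.49 and 13.45 without, so that its log2 fold change of 0.40 (SE 0.302) came with 1 low control. The other probe read 11.60, 11.60 and 11.62 against 11.67, 11.60 and 11.68 (-0.040), with control replicate 1 inside the range of the other arrays.

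**Figure D4:**
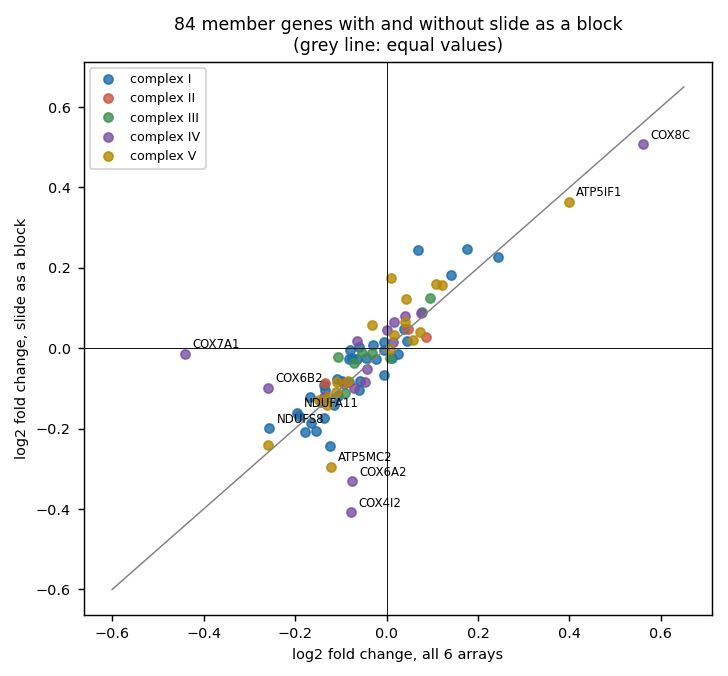
Log2 fold change over all 6 arrays (x axis) against the log2 fold change with slide as a block (y axis) for the 84 subunit genes, coloured by complex; the grey line marks equal values. COX8C and ATP5IF1 stayed highest in both, while COX7A1 moved from -0.44 to -0.014 and COX4I2 from -0.077 to -0.41.

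Genes that build or regulate the chain were taken from lists of known functions, and their calls are given beside the 4.36% of all tested genes that rose and the 3.48% that fell. Among 45 assembly factors, 2 rose and 1 fell, where 7.84% of all tested genes were called in either direction, and the median was -0.029. SCO2, a copper chaperone of complex IV, read 9.795, 9.885 and 9.89 with IL-17A and 10.195, 10.18 and 10.21 without (log2 fold change -0.34, SE 0.042, adjusted p = 0.0309). The factors that rose were COX19, another protein of copper delivery to complex IV (0.25, adjusted p = 0.036), and SDHAF4, an assembly factor of SDHA (0.26, adjusted p = 0.0451). With slide as a block the 3 values were -0.40, 0.22 and 0.32, and all 3 calls were lost (adjusted p = 0.0821, 0.14 and 0.112).

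The mobile carrier and its docking partner were lower together. CYCS, cytochrome c, read 11.59, 11.55 and 11.55 with IL-17A and 11.84, 11.875 and 11.79 without (log2 fold change -0.27, SE 0.040, adjusted p = 0.0328), and its call was lost with slide as a block (-0.24, adjusted p = 0.123). CYC1, the cytochrome c1 of complex III, whose symbol lay outside the rule, read 11.01, 11.075 and 11.07 against 11.35, 11.33 and 11.205 (-0.24, SE 0.053, adjusted p = 0.0532). Neither pair of groups overlapped, and CYC1 narrowly missed the threshold. ETFDH, which passes electrons from fatty acid oxidation to ubiquinone, was at 0.21 (adjusted p = 0.087).

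Of 15 regulators of mitochondrial biogenesis, 2 fell and none rose, where 3.48% of all tested genes fell and 4.36% rose, while POLG2, the accessory subunit of the mitochondrial DNA polymerase, had the lowest p on the higher side (0.11, adjusted p = 0.122). PPRC1, a coactivator related to PGC-1α, read 9.91, 9.94 and 9.945 with IL-17A and 10.29, 10.31 and 10.27 without (log2 fold change -0.36, SE 0.035, adjusted p = 0.0287). ESRRA, which encodes ERRα, read 10.60, 10.56 and 10.59 against 10.99, 10.84 and 10.92 (-0.335, SE 0.050, adjusted p = 0.0328). PPARGC1B, which encodes PGC-1β, was at -0.21 (adjusted p = 0.0725), also without overlap. With slide as a block these 3 were at -0.38, -0.32 and -0.24, and the PPRC1 and ESRRA calls were lost (adjusted p = 0.0844 and 0.124).
PPARGC1A, which encodes PGC-1α, was at 0.056 with overlapping groups at signals of 6.09 to 6.27. The transcription factor genes NRF1 (0.18, adjusted p = 0.233) and GABPA (0.042) did not pass. TFAM, which packages and transcribes mitochondrial DNA, was at -0.067 (adjusted p = 0.224), and POLRMT, the mitochondrial RNA polymerase, at -0.18 (adjusted p = 0.106). The calls among assembly factors, carriers and regulators come from the same fit as those of the subunits, in which adjusted calls over all probes dropped from 1818 to 48 with slide as a block.

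**Figure D5:**
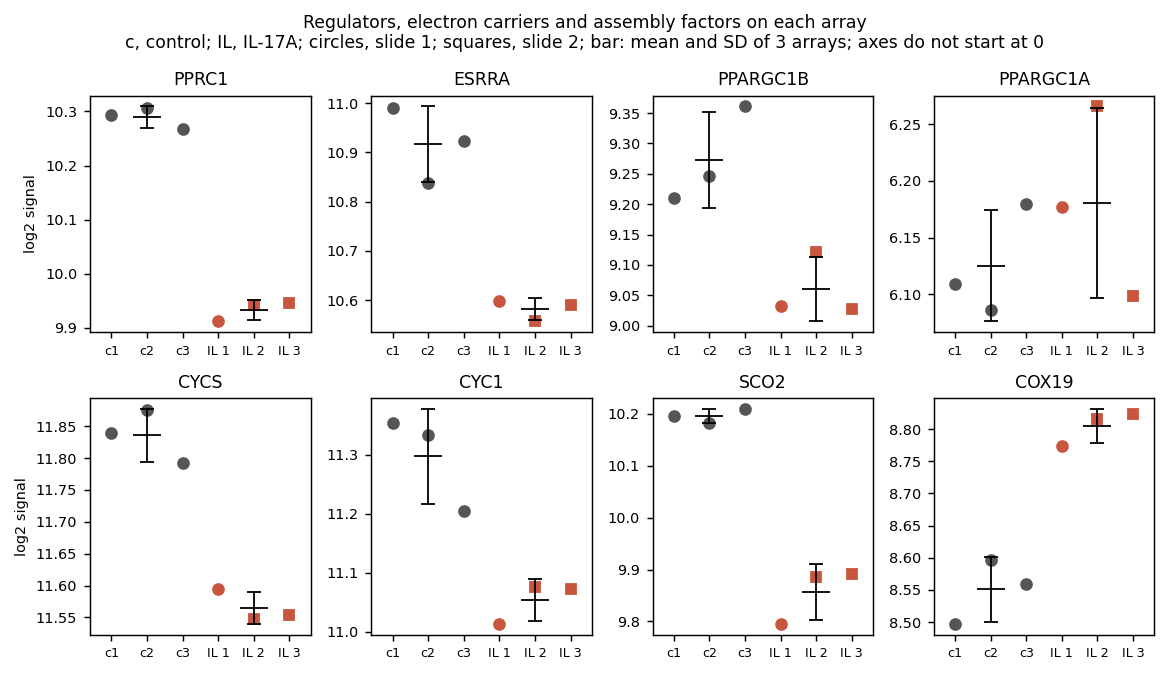
Log2 signal (y axis, each panel with its own range that does not start at 0) on each of the 6 arrays (x axis) for 8 genes that regulate, assemble or serve the respiratory chain; symbols and bars are as in the plot of selected subunits (grey control, red IL-17A, circles slide 1, squares slide 2, mean and SD). PPRC1, ESRRA, PPARGC1B, CYCS, CYC1 and SCO2 were lower and COX19 higher on every IL-17A array, while the PPARGC1A groups overlapped.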

How the data were processed

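Total RNA of 3 IL-17A and 3 control samples, grouped by title, was measured on one-colour arrays. The authors deposited, per the file headers, the output of Agilent Feature Extraction 11.0.1.1: a background-subtracted intensity per spot on a linear scale, and quality flags. They also deposited quantile normalized log2 values, used here as an alternative. The array annotation predates GRCh38.p14, so probes were named through RefSeq accessions, and coordinates are those of the RefSeq promoter table (first start listed for a symbol).

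Control spots and spots marked non-uniform or population outlier were left out (2048 values, of 43118 spots on each of 6 arrays). Intensities below 1 were set to 1, log2 values averaged per probe, and arrays quantile normalized as in the study's methods. A probe was detected where a share of 0.5 or more of its spots was positive, significant and well above background (the definition behind the authors' Detected flag is not given in the sources used here), and was tested if detected on 3 or more arrays. Limma 3.58.1 (R 4.3.3) compared the groups, two-sided, without covariates, and p-values of all tested probes were adjusted by Benjamini-Hochberg. The brightest tested probe stood for a gene. The procedure was tested on simulated data. For 1 value, 3 against 3 arrays allow no exact permutation p below 0.1, and the number of arrays limits the precision. Slides were inferred from shared scan records.

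The members and gene lists were chosen with earlier results of these data known. Named were members with an adjusted p under 0.05, the extremes of each complex, isoform sets, ATP5IF1, complex II, genes with discordant probes, set regulators and carriers, and the lowest p in each direction of a list. NDUFA3, NDUFA7, NDUFC1, NDUFC2, NDUFS6, NDUFS7, UQCRC2, SDHAF4, the further complex V and mitochondrial ribosome genes and the noncoding transcripts were named after their values were seen. Alternatives were other normalizations, background correction, detection filters, the methods' t-test, a mean-variance trend, raising dim signals to a floor, replicate number or slide as a block, the mean over a gene's probes, and each array left out in turn. Cross-hybridisation with pseudogenes was not examined, since probe sequences were not used here. Some genes are not reported here by name.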

Additional observations from a re-analysis of the deposited data

How the results depend on the processing

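The median log2 fold change of the 84 genes was negative in every alternative, from -0.062 to -0.026, and moved most without normalization (-0.034) and with slide as a block (-0.026). Counts of adjusted calls moved more, from 1 higher and 2 lower. They were 0 and 0 without normalization, with the replicate block and with slide as a block, 2 and 4 among probes detected on all 6 arrays, 2 and 2 with a floor on dim signals, 3 and 16 with a variance trend, 2 and 7 by the methods' t-test and 2 and 6 with the mean over probes. Normexp correction, whose offset of 50 shrinks fold changes of dim probes, gave 1 and 7. Over all tested probes 7.59% were called in the main fit, 11.2% among probes detected on all 6 arrays and 8.07% with a floor. The share was 16.1% with a variance trend, 5.19% by the methods' t-test and 8.55% with normexp. With the mean over probes, 11.6% of all genes were called, and without normalization 0.192% of probes. Leaving out each array in turn gave 0 to 2 higher and 0 to 1 lower, and 0 to 2 genes past 1.5-fold, namely COX7A1 and COX8C without IL-17A replicate 1 and COX8C without control replicate 2. Over all probes these fits called 0, 0 and 0 without IL-17A replicates 1 to 3, and 2, 9 and 1277 without control replicates 1 to 3. The cause was not tested, beyond the fewer samples. With 75th percentile scaling, ATP5F1D and NDUFS8 were the falling calls in place of NDUFA11 and NDUFA6. Of 504 values of 28 named genes under alternatives, 428 kept their direction and side of the threshold, 28 newly passed it, 30 no longer passed it and 18 changed sign, all of them values that passed in neither setting. The sign changed with 75th percentile scaling for ATP5MC3 (-0.057), COX6A1 (-0.048), COX7A2 (-0.059) and UQCRH (-0.008), without normalization for ATP5MC3 (-0.032), COX6A1 (-0.022) and COX7A2 (-0.033), with normexp for COX6A2 (0.016) and COX7A2 (-0.005), and with slide as a block for ATP5MC3 (-0.002) and COX8A (0.018). Leaving out single arrays gave -0.043 to 0.062 for ATP5MC3, -0.338 to 0.157 for COX4I2, -0.233 to 0.05 for COX6A2, -0.02 to 0.024 for COX7A2 and -0.006 to 0.035 for COX7A2L. No pairing by replicate number was seen, in a check that could show little with 3 arrays per group. Deviations from the group means correlated at -0.087, -0.003 and -0.047 for same-numbered arrays and at -0.047 to 0.078 for the others. With the replicate block, which also leaves fewer degrees of freedom, 4 of 23943 probes were called.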

Other observations

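The mitochondrial ribosome, which translates the subunits encoded by mitochondrial DNA, had values much like those of the subunits. Of its 77 tested genes, 54 were below 0 (70.1%) and the median log2 fold change was -0.056. By limma, 1 gene rose after adjustment, MRPS24 (0.20, adjusted p = 0.0415), and 5 fell: MRPL4 (-0.325, adjusted p = 0.0328), MRPS12 (-0.30, adjusted p = 0.0345), MRPL28 (-0.29), MRPL12 (-0.30) and MRPS7 (-0.19), where 4.36% of all tested genes rose and 3.48% fell. IL-17A values lay below all controls for 35 of the 77 genes (45.5%) and above them for 7 (9.09%), where 19.3% and 21.4% of all tested genes did. With slide as a block MRPL4 was at -0.27 and MRPS12 at -0.32, and all 6 calls were lost (adjusted p from 0.118 to 0.152). The 13 genes of the citric acid cycle had a median of -0.06 and no adjusted call. At an unadjusted p under 0.05, 3 were lower (23.1%, against 14.8% of all tested genes) and 2 higher (15.4%, against 16.9%). OGDH, a subunit of the 2-oxoglutarate dehydrogenase complex, was at 0.25 (adjusted p = 0.0946).

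COXFA4L2, formerly NDUFA4L2 and known as a hypoxia-induced gene, was higher with IL-17A at a low signal. It read 4.42, 4.28 and 4.36 against 4.10, 4.025 and 3.94 (log2 fold change 0.33, SE 0.061, limma adjusted p = 0.0403). Its values under the alternatives, slide as a block among them, are not given here. COXFA4, its widely expressed relative, was at -0.056 (adjusted p = 0.367).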
